A study of Homo sapiens with 8 samples.

Results

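Aminoacyl-tRNA synthetases are the enzymes that load each tRNA with its amino acid before translation. The deposited table for breast cancer stem cells (CSCs) listed the 39 genes of this family described here among 12939 genes. They were taken by symbol: a letter for the amino acid followed by ARS, with or without a closing digit, together with EPRS, FARSA, FARSB, TARSL2 and the scaffold genes AIMP1 and AIMP2. There were 19 genes for cytosolic enzymes, 16 for mitochondrial enzymes (symbols ending in 2), 2 genes (GARS and KARS) that serve both compartments and 2 scaffold genes. The values came from 8 RNA-Seq libraries of CSCs from the breast cancer line MDA-MB-231. The cells carried GFP under the Oct4a regulatory region and an RFP vector with scramble shRNA (3 libraries), CDH2 shRNA (3 libraries) or Cx43 shRNA (2 libraries). CDH2 encodes N-cadherin, Cx43 is the gap junction protein connexin 43, and the study asked what happened to CSCs when either was reduced. All 3 groups were stable transfectants selected with puromycin, with G418 to hold the GFP reporter, were sorted for high GFP and RFP, and were left overnight before RNA was isolated. The CDH2 shRNA cells were a single clone chosen for its knockdown, so a property of that clone and an effect of the shRNA cannot be told apart.

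A human cell makes proteins in the cytosol and in the mitochondria, and the mitochondrial enzymes are encoded in the nucleus, made in the cytosol and imported. For most amino acids a gene pair serves the compartments, such as MARS and MARS2 for methionine. Lysine and glycine share 1 gene each, and mitochondrial glutaminyl-tRNA is made by an indirect route, so there is no mitochondrial QARS. Several cytosolic enzymes sit in a multisynthetase complex held together by scaffold proteins. The genes of many cytosolic enzymes are switched on by the transcription factor ATF4 when amino acids run short, whereas the mitochondrial genes are largely outside that program.

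Each value is log2(CPM + 1), in which CPM is the read count of a gene scaled to the size of its library. A difference of 1 is a doubling of CPM + 1. The deposited values had already been corrected for the sequencing run. The read depth of the libraries is unknown, so the spread between libraries is the only measure of error. The run correction removes part of that spread, so SDs and a lack of overlap between groups can make the values look too precise. A member was called changed when its adjusted p was under 0.05 in limma, with the Benjamini-Hochberg adjustment taken over all 12939 genes. The labels do not say that the libraries came from separate cultures, so the p-values measure the spread between these libraries, which may be technical. The transcripts of CDH2 and GJA1, the Cx43 gene, were not analysed here, so the knockdown was not checked. All 9 marker genes of MDA-MB-231 were listed, with summed levels of 3157 to 3425 CPM over the 8 libraries. Singly they ranged from ANXA1, at 3.71 to 5.05 log2(CPM + 1), to VIM, at 9.62 to 9.81. Against scramble, 6 of the 9 were positive and 3 negative with CDH2 shRNA. LGALS1 alone was called, lower by 0.65 (adjusted p = 0.0335), beside 6.98% of all genes called lower. With Cx43 shRNA 5 were positive and 4 negative, and 0 were called (0.417% of all genes were called higher and 0.788% lower). Of 8 epithelial or luminal genes that this line lacks, EPCAM alone was listed, at 2.21 to 2.75. Of 5 stem cell genes POU5F1 (Oct4) alone was listed, at 3.57 to 3.85. Of 9 fibroblast markers COL1A1 and PDGFRB were listed, and their summed level was 53.7 to 66.3 CPM in scramble, 40.4 to 52.6 in CDH2 and 29.6 to 40.3 in Cx43 shRNA. Of 7 blood cell markers CD68 alone was listed, at 3.76 to 4.49. The fibroblast sums fell outside the scramble range in the libraries of both knockdowns, and their part in the results below was not tested. PDGFRB lay below scramble in both knockdowns. Its difference passed with CDH2 shRNA (-0.63, SE 0.145, adjusted p = 0.0442) and did not pass with Cx43 shRNA (-0.72, SE 0.17, adjusted p = 0.103). COL1A1 lay below scramble with Cx43 shRNA alone, but the difference of -0.92 (SE 0.31, adjusted p = 0.173) did not pass. With CDH2 shRNA COL1A1 overlapped scramble (0.16). In bulk RNA a smaller share of expressing cells and less RNA per cell cannot be told apart.

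Levels were compared between genes per kilobase of transcript, since a longer transcript gives more reads. In scramble shRNA the cytosolic enzymes had a median of 48.1 CPM per kilobase, with a range from 1.79 for TARSL2, a second threonyl-tRNA synthetase, to 170.9 for SARS, the seryl-tRNA synthetase. The mitochondrial enzymes had a median of 7.61 CPM per kilobase, with a range from 2.28 for PARS2 to 27.3 for IARS2. The medians differed 6.32-fold. In all 13 amino acids compared between a gene of each kind, the cytosolic gene was higher per kilobase, from 1.37-fold for isoleucine to 39.2-fold for serine. Of the upper 20 members of the order, 17 were cytosolic and 1 (IARS2) was mitochondrial, and of the 19 below, 15 were mitochondrial and 2 (FARSB and TARSL2) were cytosolic. Among the 38 neighbouring pairs in that order, the scramble libraries of 23 overlapped, so most neighbours did not differ beyond their spread. The lengths were those of the canonical transcripts in GENCODE v44, since the authors' annotation is not given in the sources used here. Places in the order depend on them. In scramble FARSB was at 5.98 and FARSA at 6.53 log2(CPM + 1). Divided by 6761 and 1811 bases, they were at 9.21 and 50.8 CPM per kilobase.

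**Figure D1:**
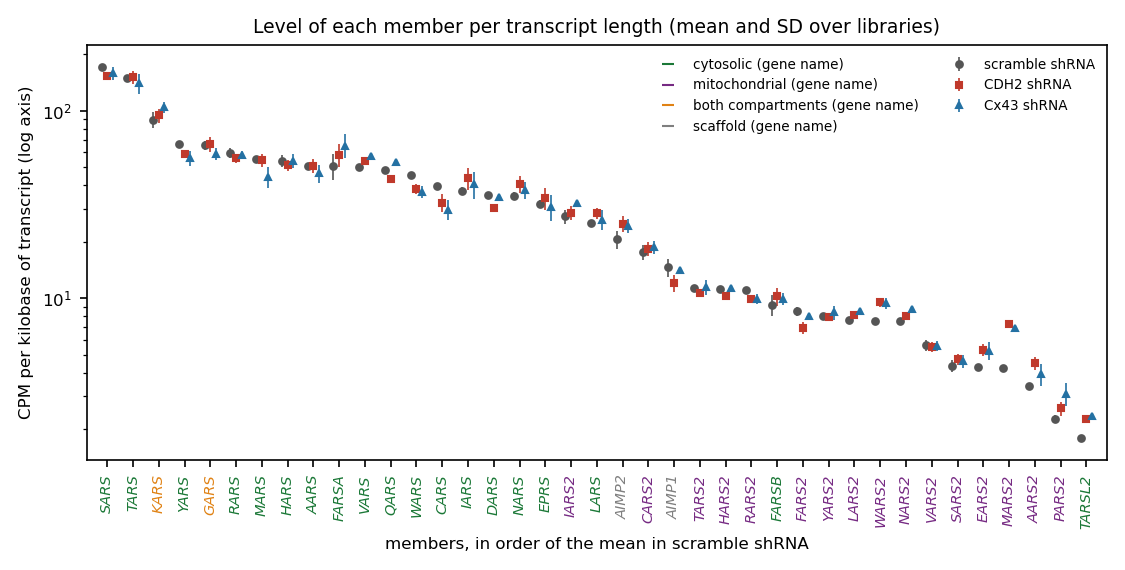
Mean level of each of the 39 members in CPM per kilobase of canonical transcript (log axis) in scramble (grey), CDH2 (red) and Cx43 shRNA (blue). Bars are the SD over libraries after the run correction. Members run from the highest to the lowest mean in scramble shRNA, from SARS at 170.9 to TARSL2 at 1.79, and the colour of the name gives the class.

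MARS2, the mitochondrial methionyl-tRNA synthetase, was the member that changed most, and it rose in both knockdowns. Its level was 3.790, 3.790 and 3.799 log2(CPM + 1) in the scramble libraries. It was 4.48, 4.56 and 4.51 with CDH2 shRNA, and 4.49 and 4.41 with Cx43 shRNA. All 5 knockdown libraries lay above all 3 scramble libraries. The rise was 0.73 with CDH2 shRNA (SE 0.075, 1.65-fold, adjusted p = 0.0167) and 0.66 with Cx43 shRNA (SE 0.088, 1.58-fold, adjusted p = 0.0384). The fold of 1.65 lay just under the fold change required in the methods for CDH2 shRNA, and the fold of 1.58 lay above the one required for Cx43 shRNA. Both calls were lost when single libraries were left out. Adjusted p for CDH2 shRNA was 0.118 without scramble replicate 1, 0.0954 without CDH2 replicate 1, 0.0751 without CDH2 replicate 2 and 0.0561 without either Cx43 library. For Cx43 shRNA it was 0.39 without scramble replicate 1, 0.11 and 0.0691 without CDH2 replicates 1 and 2, and 0.278 and 0.34 without Cx43 replicates 1 and 2. Over all 8 omissions the difference ran from 0.69 to 0.75 with CDH2 shRNA and from 0.60 to 0.72 with Cx43 shRNA. Per kilobase, MARS2 went from 4.25 ± 0.017 CPM (SD, n = 3) to 7.24 ± 0.21 (SD, n = 3) with CDH2 and 6.91 ± 0.28 (SD, n = 2) with Cx43 shRNA. Its place among the 39 members moved from 36 to 32 and 33. The SDs were taken after the run correction and may understate the spread.

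MARS2 is a gene of a single exon of 3027 bases at chr2:197705369-197708395 on the plus strand (hg38, GENCODE v44). No stretch of 75 bases, the read length, of its transcript occurs in the transcript of another annotated gene, so its reads can be placed on it alone. The 250 bases before its start are printed because it was the member called in both knockdowns (RefSeq, GRCh38.p14, chr2:197705119-197705368, plus strand). Capitals mark the letters GCGCANGCG of the NRF1 site, bound by a factor that drives nuclear genes of mitochondrial proteins, and CCGGAAG of the ETS site, on either strand.
MARS2: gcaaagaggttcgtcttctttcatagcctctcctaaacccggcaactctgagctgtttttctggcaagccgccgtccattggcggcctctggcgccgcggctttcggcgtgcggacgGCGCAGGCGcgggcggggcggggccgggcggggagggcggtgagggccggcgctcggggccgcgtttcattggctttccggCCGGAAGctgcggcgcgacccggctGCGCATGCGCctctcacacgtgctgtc
The NRF1 letters began at -133 and, overlapping on opposite strands, at -27 and -26, and the ETS letters at -52. RefSeq promoters of 300 bases, 250 before the start and 50 from it on, were matched for 32 of the 39 members. The NRF1 letters were in 3 of 14 mitochondrial and 3 of 14 cytosolic promoters (21.4% each), beside 8.05% of all 27305 promoters. The ETS letters were in 6 of 14 of each class (42.9%), beside 10.7% of all. HARS and HARS2 start head to head, and their overlapping promoters hold the same 2 ETS matches, which count in each class. These 2 motifs were chosen after the values had been seen, and the counts in the 2 classes were equal for each.

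**Figure D2:**
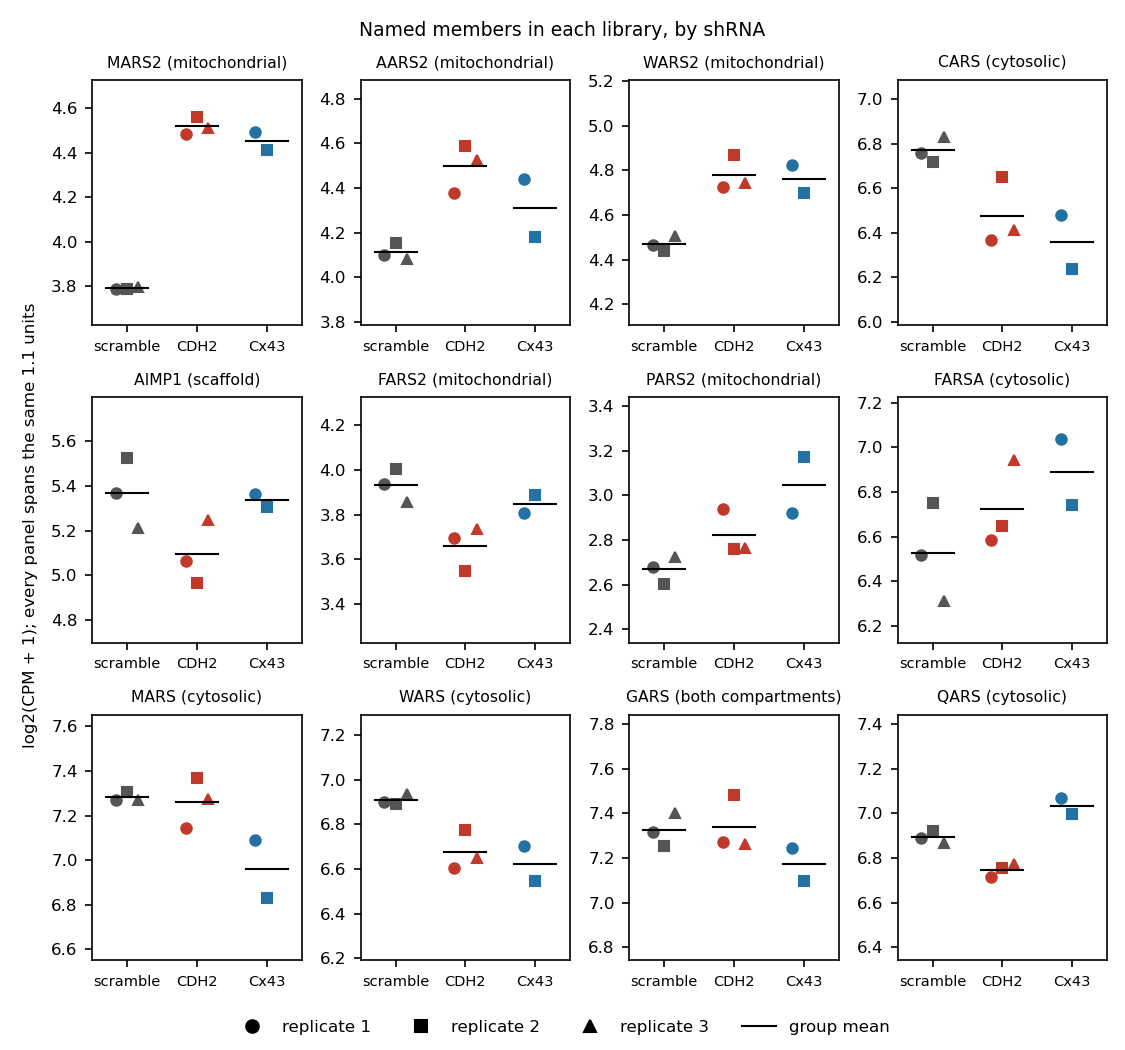
Values in log2(CPM + 1) of the 12 members named by rule in each library, by shRNA, with replicate 1 as a circle, 2 as a square and 3 as a triangle and the group mean as a line. In MARS2 the 5 knockdown libraries stand above the 3 scramble libraries, at 4.41 to 4.56 against 3.790 to 3.799.

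Over the 39 members, 1 was called higher with CDH2 shRNA (7.29% of all genes were) and 0 lower (6.98% of all genes). At an unadjusted p under 0.05 in limma, 5 members were higher and 3 lower, beside 19.5% and 18% of all genes. With Cx43 shRNA 1 member was called higher (0.417% of all genes) and 0 lower (0.788%), and at an unadjusted p under 0.05, 4 were higher and 3 lower, beside 12.2% and 9.41% of all genes. The counts are small, and a share of the family near that of all genes is not a property of the family. All 3 CDH2 shRNA libraries lay above all scramble libraries in 12 members and below in 9, beside 27.1% and 24.8% of all genes. With Cx43 shRNA the counts were 13 and 7, beside 31.4% and 21.4% of all genes. Without the replicate block in the fit, 12 members passed with CDH2 shRNA (5 higher and 7 lower) and 10 with Cx43 shRNA (6 higher and 4 lower), where that fit called 43.3% and 24.3% of all genes. Removing a library changed the counts to between 0 and 6 and between 0 and 3. The count was 0 in both comparisons without scramble replicate 1, CDH2 replicate 1 or 2, or either Cx43 library, and 6 and 3 without scramble or CDH2 replicate 3, where 41% and 16.5% of all genes were called. The added members were AARS2, AIMP1, FARS2, TARSL2 and WARS2 with CDH2 shRNA and PARS2 and TARSL2 with Cx43 shRNA. These losses were not particular to the family: 0 of 12939 genes were called with CDH2 shRNA without CDH2 replicate 1 or 2 or either Cx43 library, and 10 without scramble replicate 1, and with Cx43 shRNA 0 to 5 genes were called in the same fits. Both knockdowns were compared with the same 3 scramble libraries, so their values stand side by side and are not independent of each other.

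**Figure D3:**
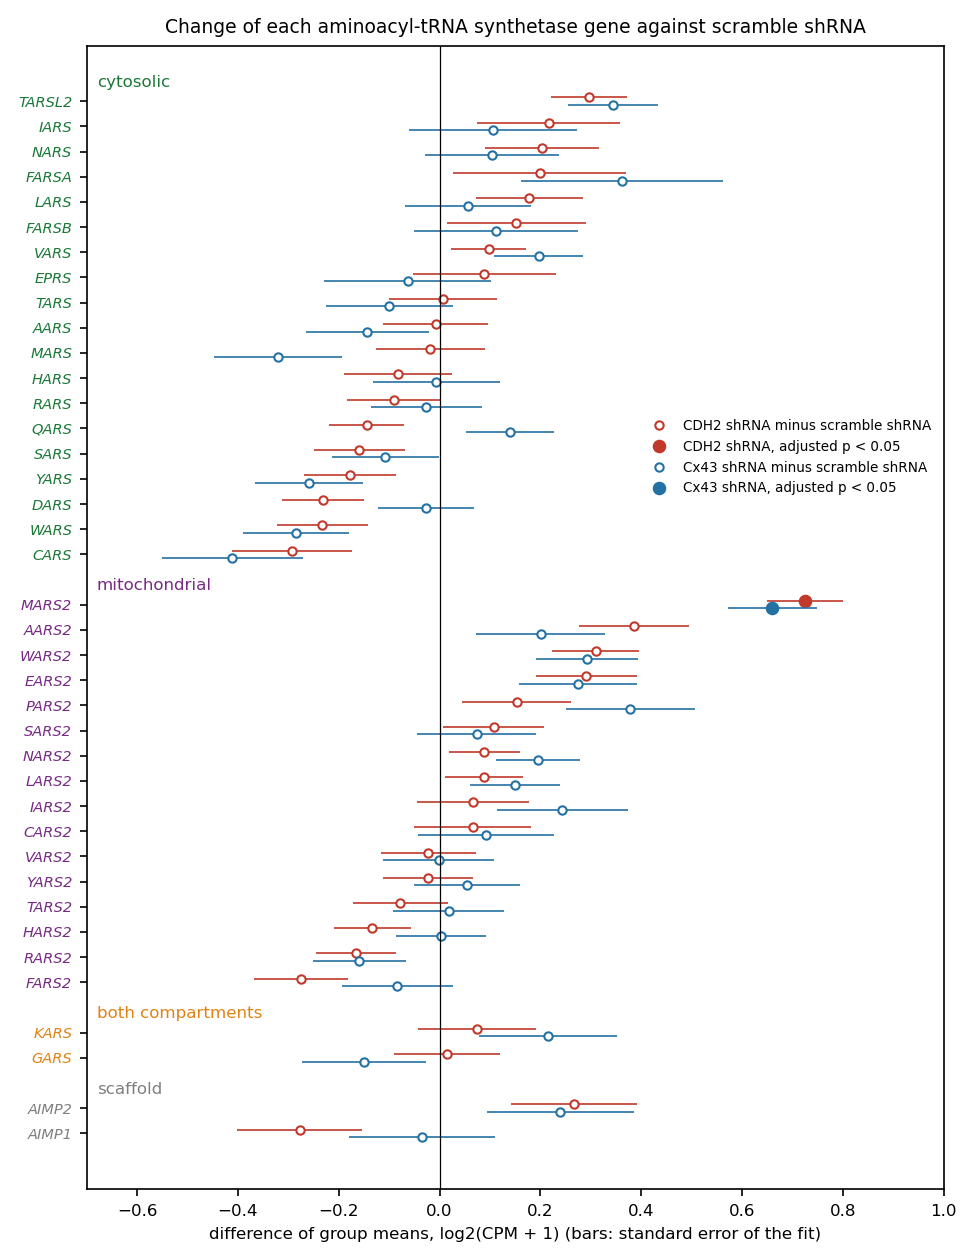
Difference from scramble shRNA in log2(CPM + 1) for all 39 members by class, with CDH2 shRNA in red and Cx43 shRNA in blue; bars are standard errors of the fit and filled points have an adjusted p under 0.05. MARS2 stands farthest to the right, at 0.73 and 0.66, and it alone is filled.

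Mitochondrial members had more positive than negative differences in both knockdowns. With CDH2 shRNA the 16 mitochondrial members ran from -0.27 to 0.73 with a median of 0.08, and 10 had a positive difference. With Cx43 shRNA they ran from -0.16 to 0.66 with a median of 0.12, and 13 were positive. Without Cx43 replicate 1 the Cx43 median was -0.0092. The medians over all genes were 0.01 and 0.04, and 51% and 57.6% of all genes were positive. Related lists were also mostly positive with Cx43 shRNA. The CDH2 and Cx43 shares were 52.4% and 71.4% in 21 genes for mitochondrial translation. They were 45.5% and 68.2% in 22 genes for tRNA handling, and 28.6% and 100% in 7 elongation factor genes. AARS2, for alanine, was at 4.10, 4.15 and 4.08 in scramble, 4.38, 4.59 and 4.53 with CDH2 shRNA, and 4.44 and 4.18 with Cx43 shRNA. The knockdown libraries were all above scramble, but the differences of 0.39 (SE 0.11, adjusted p = 0.0649) and 0.20 (SE 0.13, adjusted p = 0.41) did not pass, and without Cx43 replicate 1 the latter was 0.0043. WARS2, for tryptophan, was at 4.46, 4.44 and 4.50 in scramble, 4.72, 4.87 and 4.74 with CDH2 shRNA, and 4.82 and 4.70 with Cx43 shRNA. It too lay above scramble in every knockdown library, with differences of 0.31 (SE 0.086, adjusted p = 0.0634) and 0.29 (SE 0.10, adjusted p = 0.182) that did not pass. EARS2, for glutamate, differed by 0.29 (adjusted p = 0.0956) and 0.28 (adjusted p = 0.249). PARS2, for proline, had the second largest positive difference with Cx43 shRNA. It was at 2.678, 2.604 and 2.724 in scramble, 2.94, 2.76 and 2.77 with CDH2 shRNA, and 2.92 and 3.17 with Cx43 shRNA, a difference of 0.38 with Cx43 shRNA (SE 0.13, adjusted p = 0.174). In the other direction stood FARS2, for phenylalanine, with 3.937, 4.004 and 3.857 in scramble, 3.69, 3.55 and 3.73 with CDH2 shRNA and 3.81 and 3.89 with Cx43 shRNA. Its CDH2 libraries were all below scramble, with a difference of -0.27 (SE 0.094, adjusted p = 0.0939), while its Cx43 libraries overlapped scramble. Except for MARS2, none of the 16 mitochondrial members passed the test in either knockdown. The values of VARS2 and SARS2 are uncertain, since 95.9% and 76.7% of their 75-base stretches also occur in another annotated gene.

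Cytosolic members had positive and negative differences in like numbers, and 0 were called. With CDH2 shRNA the 19 members ran from -0.29 to 0.30 with a median of -0.01, and 9 were positive. With Cx43 shRNA they ran from -0.41 to 0.36 with a median of -0.03, and 8 were positive. The sign of these medians turned to 0.08 with CDH2 shRNA without CDH2 replicate 1, and to 0.13 with Cx43 shRNA without Cx43 replicate 2. CARS, for cysteine, had the most negative difference of the family in both knockdowns. It was at 6.76, 6.72 and 6.83 in scramble, 6.37, 6.65 and 6.41 with CDH2 shRNA, and 6.48 and 6.24 with Cx43 shRNA. All knockdown libraries were below scramble, but the differences of -0.29 (SE 0.12, adjusted p = 0.133) and -0.41 (SE 0.14, adjusted p = 0.177) did not pass. WARS, the tryptophanyl enzyme that interferon-gamma also induces, was at 6.90, 6.89 and 6.93 in scramble, 6.61, 6.77 and 6.65 with CDH2 shRNA, and 6.70 and 6.55 with Cx43 shRNA. Its differences were -0.23 (SE 0.090, adjusted p = 0.121) and -0.29 (SE 0.11, adjusted p = 0.2), with no overlap with scramble. MARS, for methionine, overlapped scramble with CDH2 shRNA. It was at 7.27, 7.30 and 7.27 in scramble, 7.14, 7.37 and 7.28 with CDH2 shRNA, and 7.09 and 6.83 with Cx43 shRNA, where the difference was -0.32 (SE 0.13, adjusted p = 0.221). The exons of MARS overlap those of DDIT3 on the opposite strand, and the sources used here do not say whether counting used the strand. FARSA, the catalytic subunit of the cytosolic phenylalanyl enzyme, had the third largest positive difference of the family with Cx43 shRNA. It was at 6.52, 6.75 and 6.31 in scramble, 6.58, 6.65 and 6.94 with CDH2 shRNA, and 7.04 and 6.74 with Cx43 shRNA. Its libraries overlapped scramble in both knockdowns, and the differences were 0.20 (adjusted p = 0.429) and 0.36 (SE 0.20, adjusted p = 0.352). TARSL2, the cytosolic member nearest to the threshold, differed by 0.30 (adjusted p = 0.0538) with CDH2 and 0.34 (adjusted p = 0.116) with Cx43 shRNA.

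Set against their cytosolic partners, the mitochondrial genes for methionine, tryptophan and alanine had the largest gaps with CDH2 shRNA. The log2 difference of the mitochondrial from the cytosolic gene was taken within each library, so that transcript length and library scale cancel in the comparison of groups. For methionine it was -3.48, -3.51 and -3.47 in scramble, -2.66, -2.81 and -2.76 with CDH2 shRNA, and -2.60 and -2.42 with Cx43 shRNA. The distance between MARS2 and MARS was thus smaller in every knockdown library. For tryptophan it was -2.44, -2.45 and -2.43 in scramble, -1.88, -1.90 and -1.91 with CDH2 shRNA, and -1.88 and -1.85 with Cx43 shRNA. In both pairs no knockdown library reached the scramble range. Of the 13 pairs, the mitochondrial gene had the more positive difference in 6 with CDH2 shRNA and in 11 with Cx43 shRNA. Between libraries of the same replicate number the count with Cx43 shRNA was 7 for number 1 and 11 for number 2, and with CDH2 shRNA it was 8, 7 and 8. The pairwise differences did not overlap with scramble in the upward direction in 5 and 7 pairs and in the downward direction in 1 and 2 pairs. Of all single genes, 27.1% lay above and 24.8% below scramble without overlap with CDH2 shRNA, and 31.4% and 21.4% with Cx43 shRNA. No such share was taken over pairs of other genes. The upward pairs in both knockdowns were those for alanine, methionine, serine, tryptophan and tyrosine, joined by cysteine and threonine with Cx43 shRNA. Valine was the downward pair in both, by -0.12 and -0.20. The serine and valine pairs rest on SARS2 and VARS2, whose values are uncertain as given above. Averaged over each class, the mitochondrial minus the cytosolic level was -2.48, -2.48 and -2.48 in scramble, -2.34, -2.43 and -2.37 with CDH2 shRNA, and -2.36 and -2.27 with Cx43 shRNA. Every knockdown library had the narrower gap in these means, which include MARS2, the only member called. Over the 13 pairs the median change of the mitochondrial minus the cytosolic level was -0.05 with CDH2 and 0.14 with Cx43 shRNA. These class and pair values are a description with no test.

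**Figure D4:**
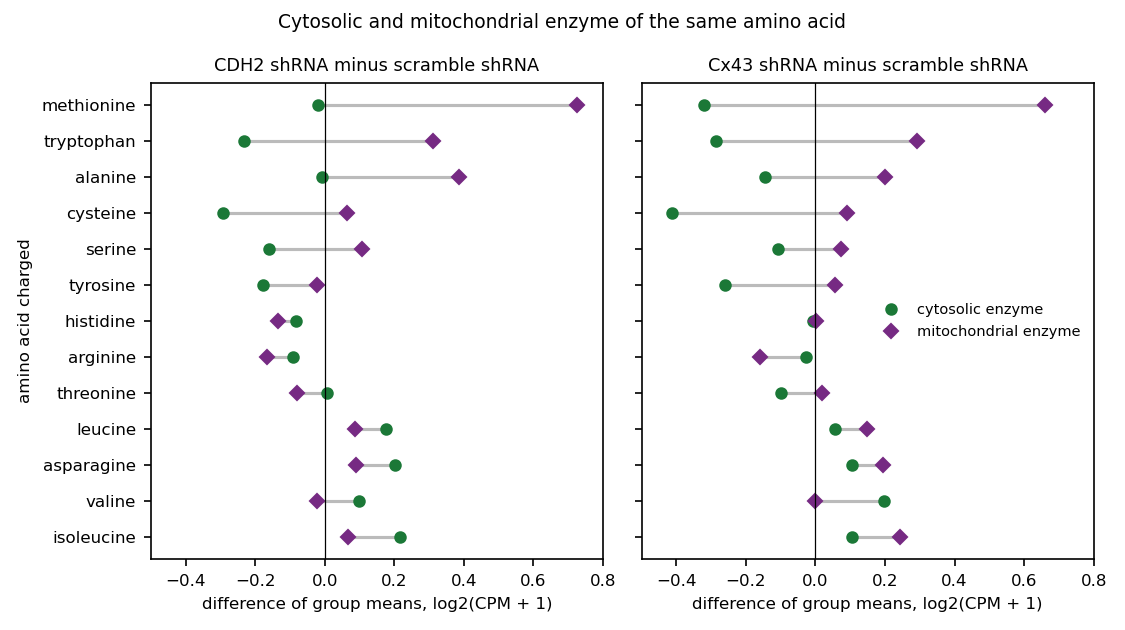
Difference from scramble shRNA in log2(CPM + 1) of the cytosolic (green circle) and the mitochondrial gene (purple diamond) of the same amino acid, with CDH2 shRNA on the left and Cx43 shRNA on the right, in the order of the CDH2 gap. The mitochondrial gene lies to the right in 6 of 13 amino acids with CDH2 shRNA and in 11 of 13 with Cx43 shRNA.

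Members of the multisynthetase complex did not pass the test in any comparison. The list held 11 genes: EPRS, LARS, IARS, MARS, QARS, KARS, RARS, DARS, the scaffolds AIMP1 and AIMP2, and EEF1E1, a further scaffold outside the 39 members. Their median difference was 0.07 with CDH2 and 0.06 with Cx43 shRNA, and 1 gene was lower at an unadjusted p under 0.05 in each, DARS and MARS. The scaffolds had differences of opposite sign with CDH2 shRNA. AIMP1 was at 5.37, 5.53 and 5.21 in scramble, 5.06, 4.97 and 5.25 with CDH2 shRNA, and 5.37 and 5.31 with Cx43 shRNA, and both knockdowns overlapped scramble (-0.28 with CDH2 shRNA, SE 0.12, adjusted p = 0.161). AIMP2 differed by 0.27 with CDH2 shRNA (adjusted p = 0.174) and 0.24 with Cx43 shRNA (adjusted p = 0.392), but 40.8% of its 75-base stretches also occur in EIF2AK1. KARS and GARS, which serve both compartments, differed by 0.07 and 0.02 with CDH2 shRNA and by 0.22 and -0.15 with Cx43 shRNA, with adjusted p from 0.409 to 0.93.

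CDH2 and Cx43 shRNA were also compared directly. In this comparison 0 of 12939 genes, hence 0% and 0 members, passed the adjusted threshold in limma. At an unadjusted p under 0.05, 0 members were higher and 1 was lower with CDH2 shRNA, beside 8.65% and 11.4% of all genes. All CDH2 libraries lay above both Cx43 libraries in 2 members and below in 10, beside 21.8% and 29.1% of all genes. The lower member was QARS, the glutaminyl-tRNA synthetase. QARS was at 6.89, 6.92 and 6.87 in scramble, 6.72, 6.75 and 6.77 with CDH2 shRNA, and 7.067 and 6.997 with Cx43 shRNA. Scramble thus lay between the knockdowns without overlap, and the direct difference was -0.28 (SE 0.087, adjusted p = 0.179). The largest positive difference among the members was that of MARS at 0.30 (SE 0.13, adjusted p = 0.26). GARS was at 7.32, 7.25 and 7.40 in scramble, 7.27, 7.48 and 7.26 with CDH2 shRNA, and 7.25 and 7.10 with Cx43 shRNA, a direct difference of 0.17 (adjusted p = 0.486). MARS2 differed between the knockdowns by 0.06 (SE 0.088, adjusted p = 0.708). Without the block, DARS and QARS passed in this comparison, both lower with CDH2 shRNA, beside 21.5% of all genes in that fit.

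Genes of the amino acid response that passed the test all fell. With CDH2 shRNA 8 of 31 listed genes of the response other than synthetases were called lower and 0 higher, beside 6.98% and 7.29% of all genes, with a median of -0.20. The 31 were mixed in sign, with 9 positive and 22 negative. SLC7A11 (0.49), SLC7A1 (0.39) and ALDH18A1 (0.33) lay above scramble in every CDH2 library, but did not pass. With Cx43 shRNA 7 were positive and 24 negative. DDIT3 (CHOP), a stress transcription factor downstream of ATF4, was at 4.65, 4.67 and 4.64 in scramble, 4.06, 4.04 and 4.08 with CDH2 shRNA, and 4.04 and 4.03 with Cx43 shRNA. It fell by 0.59 with CDH2 (adjusted p = 0.0198) and by 0.62 with Cx43 shRNA (adjusted p = 0.0384). ATF4 was at 8.59 to 8.60 in scramble, 8.10 to 8.12 with CDH2 and 8.24 to 8.26 with Cx43 shRNA. The groups did not overlap, and ATF4 fell by 0.48 with CDH2 shRNA (adjusted p = 0.0215), while the difference of -0.35 with Cx43 shRNA did not pass (adjusted p = 0.104). NUPR1, a stress-induced chromatin protein, and CEBPB, a transcription factor, fell by 0.82 and 0.42 with CDH2 shRNA (adjusted p = 0.0333 and 0.0342). With Cx43 shRNA 2 of the 31 were called lower and 0 higher (0.788% and 0.417% of all genes), with a median of -0.16: ASNS, the asparagine synthetase, which fell by 0.77 (adjusted p = 0.0354), and DDIT3. These calls too were lost in the omissions that left 0 genes called. The 12 synthetases of the same response (AARS, CARS, EPRS, GARS, IARS, LARS, MARS, NARS, SARS, TARS, WARS and YARS) had 0 called in either knockdown. At an unadjusted p under 0.05, 1 of them was lower with CDH2 shRNA and 3 (CARS, MARS and WARS) with Cx43 shRNA. Their medians were -1e-04 and -0.13, with 6 and 9 of 12 negative. The direct comparison was positive in 11 of 12, but this rested on Cx43 replicate 2: between libraries of the same replicate number, 2 of 12 were positive for number 1 and 12 of 12 for number 2. Against scramble, 7 of 12 were negative in Cx43 replicate 1 and 11 of 12 in Cx43 replicate 2.

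The letters TGATGNAA, the core of the amino acid response element that ATF4 binds, were searched on both strands of the 32 promoters. They were found in 6 of 14 cytosolic promoters (42.9%) and 1 of 14 mitochondrial promoters (7.14%), beside 3.67% of all 27305. The search fixed every letter of the core but N, so the likeness of the cores is not a result. The 30 bases around each match are printed on the strand of the gene, with the core in capitals (RefSeq, GRCh38.p14).
AARS: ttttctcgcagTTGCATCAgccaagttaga
CARS: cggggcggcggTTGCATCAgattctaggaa
IARS: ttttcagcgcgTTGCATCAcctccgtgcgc
MARS: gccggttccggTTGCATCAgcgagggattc
NARS: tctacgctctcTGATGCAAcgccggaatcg
TARS: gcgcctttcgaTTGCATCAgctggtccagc
YARS2: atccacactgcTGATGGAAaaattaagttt
They lie at chr16:70289675-70289704 (AARS, minus), chr11:3057407-3057436 (CARS, minus), chr9:92293692-92293721 (IARS, minus), chr12:57488053-57488082 (MARS, plus), chr18:57621804-57621833 (NARS, minus), chr5:33440956-33440985 (TARS, plus) and chr12:32756076-32756105 (YARS2, minus). The core began at -187 in AARS and within 15 bases of the start in CARS, IARS, MARS, NARS and TARS. The 6 cytosolic genes with the core did not move together with CDH2 shRNA: their differences ran from -0.29 for CARS to 0.22 for IARS, and none passed. With Cx43 shRNA they ran from -0.41 for CARS to 0.11 for IARS. A match of letters is a description and does not show binding.

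**Figure D5:**
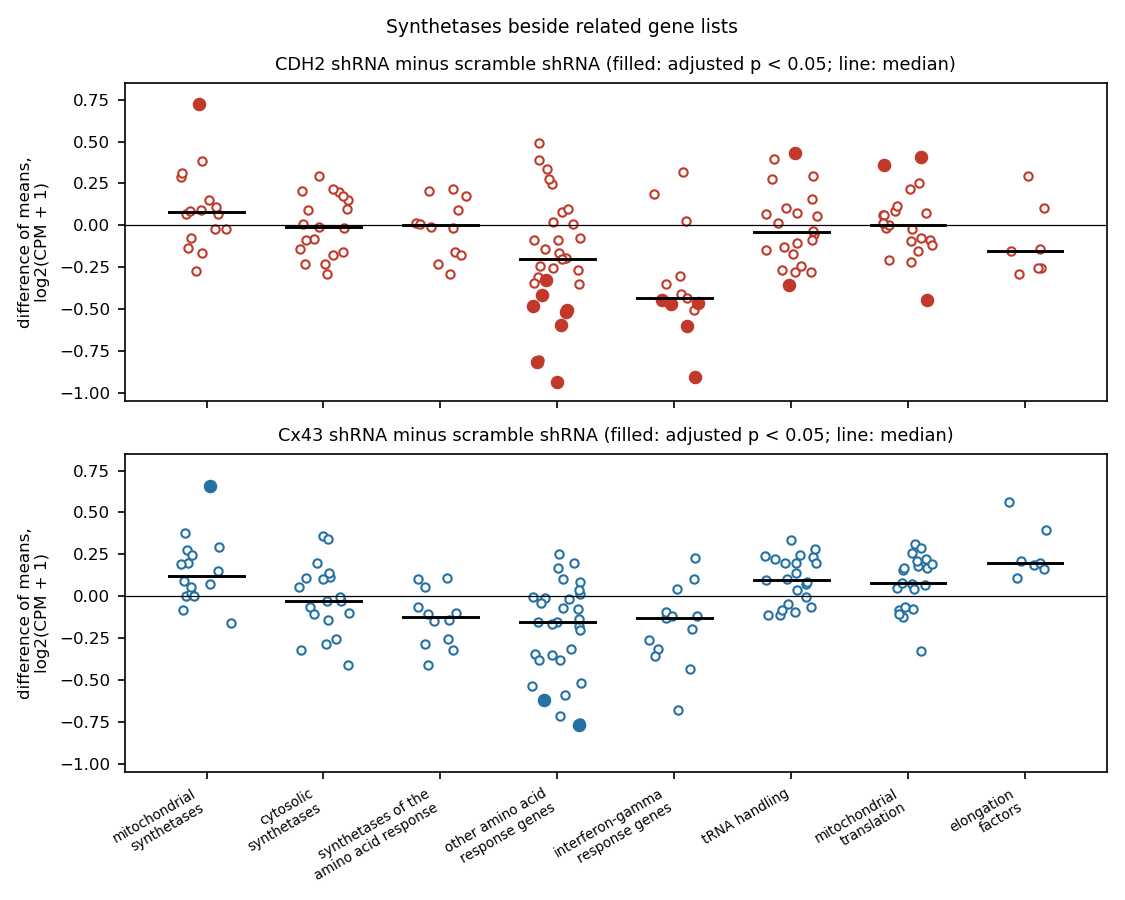
Difference from scramble shRNA in log2(CPM + 1) of each gene in 8 lists, with CDH2 shRNA above and Cx43 shRNA below; filled points have an adjusted p under 0.05 and lines are medians, and the synthetases of the amino acid response are also among those of the other columns. The other genes of the response run from -0.94 to 0.49 with CDH2 shRNA, with 8 filled below 0, whereas its 12 synthetases lie between -0.29 and 0.22.

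Counts among other genes around tRNA charging and translation are to be read beside the shares of all genes. With CDH2 shRNA limma called 7.29% of all genes higher and 6.98% lower, and 19.5% and 18% at an unadjusted p under 0.05. With Cx43 shRNA it called 0.417% and 0.788%, and 12.2% and 9.41% at an unadjusted p under 0.05. Small counts near these shares are not a property of the lists. Of 22 genes for tRNA export, processing and proofreading, DTD2 rose by 0.43 with CDH2 shRNA (adjusted p = 0.0394) and DTD1 fell by 0.36 (adjusted p = 0.0493), both deacylases that clear wrongly charged tRNA, and with Cx43 shRNA 0 were called in limma and 2 were higher at an unadjusted p under 0.05. Of 21 genes for mitochondrial translation, MRRF, a ribosome recycling factor, and GFM1, an elongation factor, rose by 0.36 and 0.41 with CDH2 shRNA (adjusted p = 0.0353 and 0.0363), and MTIF3, an initiation factor, fell by 0.45 (adjusted p = 0.0374). With Cx43 shRNA 0 of the 21 were called in limma and 2 were higher at an unadjusted p under 0.05. Their medians were 0.0018 and 0.08, beside 0.08 and 0.12 for the mitochondrial synthetases. The 7 cytosolic elongation factor genes had 0 calls in limma in each knockdown, with medians of -0.15 and 0.20. At an unadjusted p under 0.05, 1 was higher and 1 lower with CDH2 shRNA, and 2 were higher with Cx43 shRNA. Of 13 interferon-gamma response genes, the list to which WARS is tied, 5 were called lower with CDH2 shRNA (6.98% of all genes were) and 0 with Cx43 shRNA, where 4 were lower at an unadjusted p under 0.05 in limma. PSMB9, an immunoproteasome subunit, fell by 0.91 (adjusted p = 0.02) and B2M, the light chain of MHC class I, by 0.60 (adjusted p = 0.02). PSME1, a proteasome activator, and PSMB8, a further immunoproteasome subunit, fell by 0.47 and 0.45 (adjusted p = 0.0225 and 0.0324). The interferon-stimulated response element was found in 0 of 14 cytosolic and 1 of 14 mitochondrial promoters (EARS2), beside 3.65% of all, and the letters TTCNNNGAA of the gamma-activated site in 2 of 14 of each class (CARS and TARS, and PARS2 and WARS2), beside 7.88% of all. No match of either was in the promoter of WARS.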

How the data were processed

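The input was 8 tables, one per RNA-Seq library of sorted CSCs. According to the methods, the authors aligned reads to hg38 with STAR (2.6.1 in the submitters' processing notes) in Partek Flow, removed a low-quality sample, normalized to log2(CPM + 1), removed the batch effect among sequencing replicates and removed low genes. The deposited values are log2(CPM + 1). Within each replicate number of the labels, every gene's deviations from its group means added up to 1e-04 or less, so those numbers are the term that was removed, and they entered the fit as a block. The pairing rests on the labels. A correlation check of the pairing has no independent information after that removal. The batch and depth per library cannot be recovered, and the number of libraries limits the precision. The 1 unnamed line was dropped.

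The fit used limma 3.58.1 in R 4.3.3 (lmFit, eBayes) on all 8 libraries with group and replicate number, with 3 residual and 2.84 prior degrees of freedom, and was tested on simulated data. P-values are two-sided. The members and gene lists were chosen with earlier results of these data known. Per-library values are given for members called in any comparison and for the 3 largest rises and falls in each; of other lists, at most the 4 called genes with the smallest adjusted p are named. EARS2, TARSL2, AIMP2 and KARS were added after their values were seen. A further gene of the family is not reported here and enters none of the counts of members. Positions and lengths are from GENCODE v44, promoters from RefSeq.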

Additional observations from a re-analysis of the deposited data

How the results depend on the processing

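The alternatives left out the block, each library in turn, the third group or all but the top 75% of genes by mean, rescaled the libraries (by quantiles or by medians), allowed a trend of the variance, took 0.1 as pseudocount, or added the fold changes of the methods to the call. With CDH2 shRNA 1 member was called in the fit as reported, 12 without the replicate block (43.3% of all genes), 2 after quantile normalization (TARSL2 added; 15.2% of all genes), and 0 both with only the groups compared and with the added fold change, which MARS2 missed at 1.65; over the omissions the count ran from 0 to 6. With Cx43 shRNA 1 member was called, 10 without the block (24.3% of all genes), 4 with only the groups compared (3 higher and 1 lower; 21.7% of all genes) and 0 with the 75% filter, where MARS2 had an adjusted p of 0.0536; the omissions gave 0 to 3. In the direct comparison 2 were called without the block (21.5% of all genes) and 0 in every omission. Without scramble or CDH2 replicate 3 the block absorbs the lone library left with that number, so these fits are identical, and a lone Cx43 library was assumed to vary like the other groups. Fewer residual degrees of freedom go with the omissions.

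The rise of MARS2 stayed positive in all 15 alternatives, from 0.69 to 0.76 with CDH2 shRNA (adjusted p from 0.000188 to 0.118) and from 0.60 to 0.72 with Cx43 shRNA (0.000135 to 0.39). The mitochondrial median ran over the omissions from 0.0253 to 0.0999 with CDH2 shRNA, from -0.0092 to 0.186 with Cx43 shRNA and from -0.1205 to 0.0609 in the direct comparison; with only the groups compared it was 0.0798 with Cx43 shRNA and -0.0879 in the direct comparison. The cytosolic median ran from -0.0836 to 0.0762, from -0.137 to 0.125 and from -0.0799 to 0.169.

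Signs turned for members that had not passed. With CDH2 shRNA GARS was -0.0176 after quantile normalization and between -0.101 and 0.0927 over the omissions, MARS between -0.104 and 0.0762, and FARSA between -0.0181 and 0.3781. AIMP1 with Cx43 shRNA ran from -0.11 to 0.12. In the direct comparison AARS2 ran from -0.0108 to 0.381, CARS from -0.062 to 0.298, FARSA from -0.386 to 0.0591, WARS from -0.0634 to 0.169 and WARS2 from -0.0735 to 0.1097. The causes were not tested. The depth behind each value is unknown, so no counting error can be given.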
